A study of Homo sapiens with 8 samples.

Results

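Progesterone receptor (PR) sites that were listed at 30 and 60 min of hormone and at no other time sampled are described here and called transient. They were chosen by the times at which sites were listed: the 5 deposited lists of PR sites were merged where sites overlapped by 1 bp or more, and merged sites were kept if they held a site of both 30 and 60 min and none of 0, 5 and 360 min. Of 43784 merged sites, 2005 (4.58%) met this rule. The lists came from chromatin immunoprecipitation with sequencing (ChIP-seq) of T47D-MTVL cells, a luminal line of human breast cancer with an integrated reporter that responds to progestin. Cells of all groups had been kept in charcoal-treated serum and then without serum. They were left unstimulated (0 min), or R5020, a synthetic progestin, was added at 10 nM, and PR was precipitated after 5, 30, 60 or 360 min. In 3 further samples, all of unstimulated cells, the precipitated targets were RNA polymerase II and histone H3 that carried 1 (H3K4me1) or 3 (H3K4me3) methyl groups on lysine 4. A last table, for sites of the 60 min list, held reads of DNA protected from micrococcal nuclease (MNase), in unstimulated cells and, per the series' design text, after 60 min of R5020.

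PR is a nuclear receptor that moves to chromatin when a progestin binds it, and recognises palindromic hormone response elements as a dimer. H3K4me1 marks enhancers, both active and poised, and the flanks of promoters, while H3K4me3 marks active promoters. MNase cuts the linker DNA between nucleosomes, so the reads left at a site reflect DNA covered by nucleosomes. In breast epithelium PR binds mainly distal enhancers.

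Each group was 1 library, so differences between times or conditions could not be checked against replicates and are given without p-values. The lists held positions without heights or read numbers, and their depth is unknown. Absence from a list is therefore no measurement of absent PR: a site just under the threshold at 5 or 360 min would also appear as transient. The 95% intervals given for shares (exact, Clopper-Pearson) and for medians (exact, from order statistics) cover the number of sites alone. Neighbouring sites share their surroundings, so these intervals are likely too narrow. Coordinates are those of the lists, on hg19. No gene annotation or sequence of that build was used here, so sites are named by position.

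Transient sites were a minority of the sites shared by the middle times. A site of both 30 and 60 min was present in 18634 merged sites, and 2005 of these (10.8%, 95% interval 10.3 to 11.2%) were transient. A further 1896 were listed at 5, 30 and 60 min, 4653 at 30, 60 and 360 min, and 10001 at all 4 times with hormone. Absence at 360 min thus applied to 30.1% (29.0 to 31.2%) of the 6658 sites not listed at 0 or 5 min, and to 15.9% (15.3 to 16.6%) of the 11897 that were listed at 5 min and not at 0 min. The 30 min list consisted of transient sites to 7.78%, and at 60 min this figure was 8.22%. These counts describe the selection itself and carry no test.

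**Figure D1:**
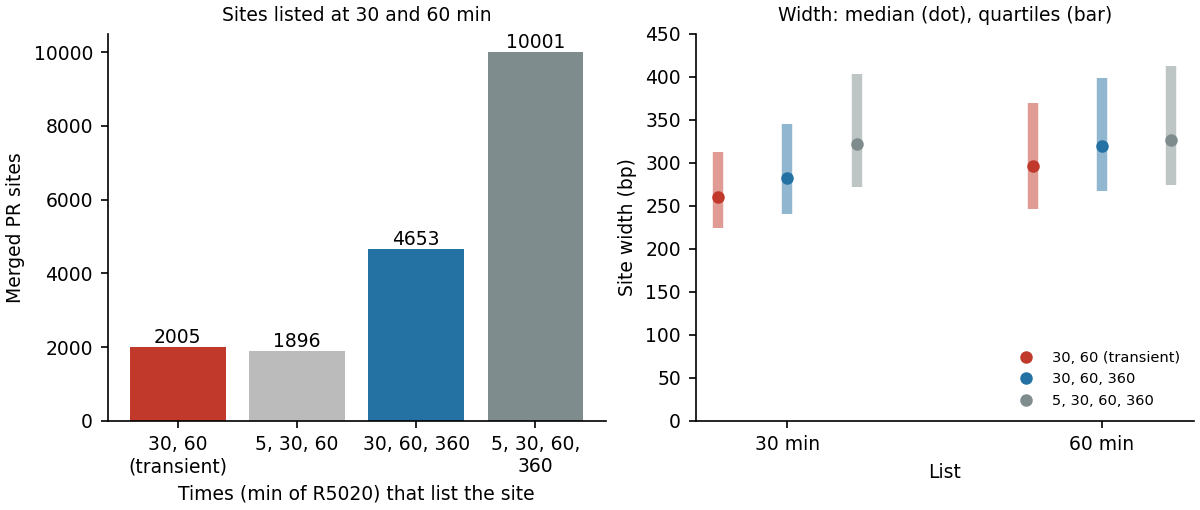
Left, the number of merged PR sites listed at both 30 and 60 min, by the other times (min of R5020) that list them; right, site width in bp in the 30 and 60 min lists (dots, medians; bars, lower to upper quartile) for 3 of these classes. The 2005 transient sites are close in number to the 1896 sites of 5, 30 and 60 min, and they are the narrowest of the 3 classes in both lists.

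Nearly all transient sites were simple pairs. In 1993 of the 2005 a single 30 min site met a single 60 min site, and 12 held more than 1 site of a time. The members of a pair lay on top of each other: they shared a median of 235 bp (quartiles 207 and 274), and their midpoints were a median of 27 bp apart (12 and 52). For 73.5% (71.5 to 75.4%) of pairs the midpoints were within 50 bp. Only 3 pairs shared fewer than 100 bp.

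The sites were narrower than their lists as wholes, and wider at 60 than at 30 min, as the lists themselves were. All sites of the 30 min list had a median width of 285 bp, and all of the 60 min list 313 bp. The 30 min sites measured 260 bp (median, with quartiles of 224 and 313), and those of 60 min measured 296 bp (246 and 370). The 60 min site was the wider one in 68.1% (66.0 to 70.1%) of pairs, with a median width ratio of 1.12 (0.962 and 1.37). In sites of 30, 60 and 360 min the share was 65.8% (64.4 to 67.1%), and in sites of all 4 times 49.6% (48.6 to 50.6%), with a median width ratio of 1.00. Sites of 30, 60 and 360 min were 282 bp wide at 30 min and 320 bp at 60 min, and sites of all 4 times 322 and 326.5 bp. Sites at 60 min alone measured 276 bp, and those at 30 min alone 236 bp. In the narrowest 25% of the 60 min list (median 235 bp) 11.3% (10.5 to 12.2%) of sites were transient, against 6.65% (6.04 to 7.31%) in the widest 25% (median 472 bp). Width comes from the lists that chose the sites and is given as a description.

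The rule's edge was thinly filled. Just inside it, the transient site at chr18:67326294-67327058 joined its 30 and 60 min sites by 1 bp, chr5:124022191-124022583 by 47 bp and chr12:63351298-63351597 by 89 bp. The transient site at chr3:170984912-170985433 lay 2 bp from a 360 min site, and those at chr12:32532192-32532595 and chr18:42419945-42420254 lay 4 and 6 bp from a 5 min site. Just outside, a site of 30 and 60 min at chr3:169835012-169835599 was kept out by 4 bp shared with a 5 min site. The sites at chr3:156221168-156221729 and chr10:34828680-34829283 were kept out by 7 bp of a 5 min site and 16 bp of a 360 min site. Of 16550 sites of 30 and 60 min that were kept out by 5 or 360 min, 3 were kept out by fewer than 50 bp, and 32 transient sites had a 5 or 360 min site within 50 bp.

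Most transient sites lay in chromatin without any of the 3 listed features before hormone. Of the 2005, 1255 (62.6%, 60.4 to 64.7%) overlapped no H3K4me1, H3K4me3 or RNA polymerase II region, where 56.7% of all merged PR sites did. H3K4me1 regions held 720 (35.9%, 33.8 to 38.1%), against 42.1% of all merged sites. The other features were rarer: 91 sites (4.54%, 3.67 to 5.54%) overlapped H3K4me3, against 4.10% of all merged sites, and 101 (5.04%, 4.12 to 6.09%) overlapped RNA polymerase II, against 6.99%. The intervals of the transient sites lay below the share of all merged sites for H3K4me1 and RNA polymerase II, and included it for H3K4me3.

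The features occurred in few combinations. H3K4me1 without either of the others, the pattern of an enhancer without listed polymerase, was found at 614 sites (30.6%). All 3 features met at 42 sites (2.10%), H3K4me1 and RNA polymerase II at 37, H3K4me1 and H3K4me3 at 27, and H3K4me3 and RNA polymerase II without H3K4me1 at 14. H3K4me3 alone and RNA polymerase II alone were found at 8 sites each.

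In H3K4me1 the transient sites were closer to the classes counted without 5 min than to those listed at 5, 30 and 60 min. Sites of 30, 60 and 360 min lay in H3K4me1 regions in 35.0% (33.7 to 36.4%) of cases and sites of 60 min alone in 36.7% (34.9 to 38.6%), and both intervals overlapped that of the transient sites. Sites of 30 min alone had 32.0% (30.6 to 33.6%), just below the transient interval. Sites listed at 5, 30 and 60 min were in these regions more often. The share was 60.3% (59.3 to 61.2%) for sites of all 4 times and 54.0% (51.7 to 56.3%) for those also absent at 360 min. Sites listed at 5 min but not at both 30 and 60 min were not counted here. The transient share was near that of the 30, 60 and 360 min sites at each width: among merged sites 250 to 300 bp wide it was 34.8% (30.7 to 39.1%) against 38.6% (35.2 to 42.0%), and among those 450 bp or wider 35.6% (30.1 to 41.3%) against 35.5% (32.7 to 38.3%). At the latter widths sites of all 4 times had 64.3% (62.8 to 65.9%).

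With 1 bp of overlap, H3K4me3 was more frequent at transient sites than at sites of 30, 60 and 360 min, of which 3.03% (2.56 to 3.56%) overlapped it, and the 2 intervals did not meet. By midpoint, so with fewer sites at a region's border, the shares were 3.39% (2.64 to 4.28%) and 2.52% (2.08 to 3.01%), with intervals that overlap. Intervals also overlapped with regions counted within 1 kb, at 6.98% (5.91 to 8.19%) and 6.02% (5.35 to 6.74%). The same held for the wider 50% of regions, at 3.29% (2.555 to 4.17%) and 2.30% (1.89 to 2.77%). For RNA polymerase II the share at sites of 30, 60 and 360 min was 4.08% (3.53 to 4.69%), and its interval overlapped that of the transient sites. Sites of 60 min alone had 5.97% (5.10 to 6.94%) in H3K4me3 and 6.61% (5.70 to 7.62%) in RNA polymerase II regions. Sites of 30 min alone had 2.04% (1.61 to 2.54%) and 3.41% (2.85 to 4.04%), both below the transient intervals.

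**Figure D2:**
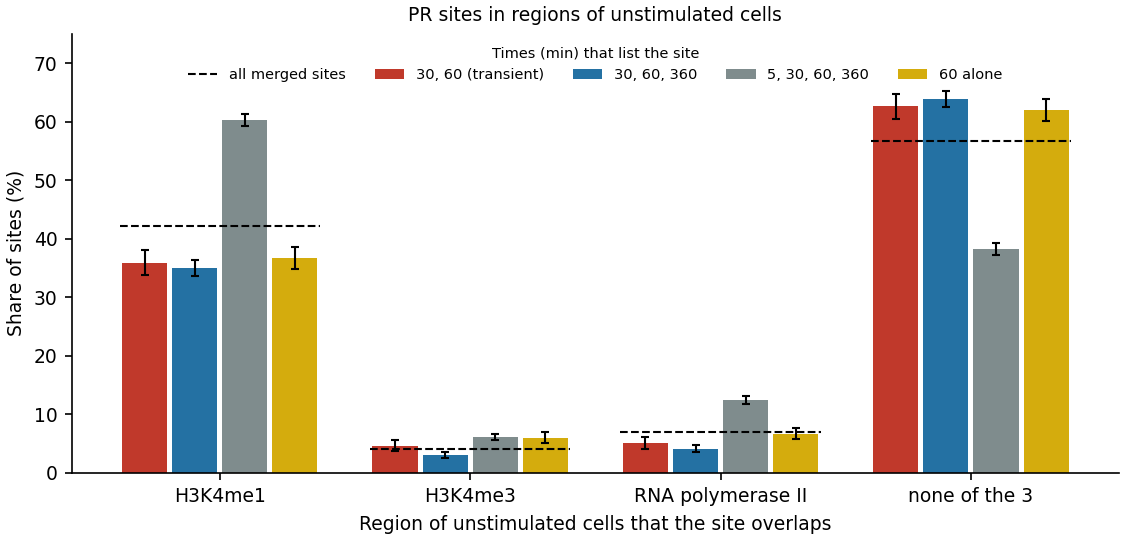
Share of PR sites (%) that overlap regions of unstimulated cells, for 4 classes named by the times (min of R5020) that list them; error bars are exact 95% intervals over sites and dashed lines the share of all 43784 merged sites. The transient sites, at 35.9% for H3K4me1 and 62.6% for none, sit beside the sites of 30, 60 and 360 min and of 60 min alone, apart from the sites of all 4 times.

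Transient sites outside the regions were rarely at their borders. Of the 1285 not in H3K4me1 regions, 122 (9.49%, 7.95 to 11.2%) were within 1 kb of one, and the median gap was 16.2 kb. For sites of 30, 60 and 360 min this share was 7.44% (6.53 to 8.44%), with a median gap of 14.5 kb. The median gap to the nearest region was 48.4 kb for H3K4me3 and 59.8 kb for RNA polymerase II, against 43.8 and 48.7 kb for sites of 30, 60 and 360 min.

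Inside H3K4me1 regions the transient sites had other PR sites beside them about as often as sites of 30, 60 and 360 min. The 720 sites fell into 714 regions, and 310 (43.1%, 39.4 to 46.8%) shared the region with another merged PR site of some time. A site present at all 4 times with hormone was in the same region for 168 (23.3%, 20.3 to 26.6%). Sites of 30, 60 and 360 min gave 42.5% and 24.7%, both inside those intervals. Of the sites of all 4 times in H3K4me1 regions, 50.4% (49.1 to 51.7%) shared the region with another merged site, above the transient interval.

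Over all transient sites, the nearest merged PR site of any time was a median of 7.91 kb away, against 8.89 kb for sites of 30, 60 and 360 min and 4.04 kb for sites of all 4 times. A site of 5 min was found within 1 kb of 229 transient sites (11.4%, 10.1 to 12.9%), a site of 360 min near 201 (10.0%) and a site of 0 min near 8. Of the sites of 30, 60 and 360 min, fewer had a 5 min site within 1 kb, at 8.36% (7.58 to 9.19%). Counted together, 290 transient sites (14.5%, 13.0 to 16.1%) had a site of 0, 5 or 360 min within 1 kb. These 290 lay in H3K4me1 regions in 57.9% (52.0 to 63.7%) of cases, and the other 1715 in 32.2% (30.0 to 34.5%). Gaps between transient sites were measured without another class beside them. The next transient site on the chromosome was a median of 749 kb away, and of 1982 such gaps 61 were under 10 kb and 8 under 1 kb. Such gaps depend on the number of sites in the class, so they do not tell whether the sites were clustered or spread out.

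Transient sites were found on each of the autosomes and on chromosome X. Of the sites of 30 and 60 min they made up between 3.52% (1.70 to 6.38%) on chromosome 19, with 10 transient sites, and 14.4% (12.3 to 16.6%) on chromosome 2, with 158. Chromosome 17 had 8.29% (6.51 to 10.4%) and chromosome 4 had 12.9% (10.6 to 15.5%). The most transient sites, 204, were on chromosome 1.

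The share of transient sites in H3K4me1 regions varied widely along with the chromosome's other PR sites. On chromosome 17, 51 of 69 transient sites (73.9%, 61.9 to 83.8%) were in such regions, and on chromosome 4, 11 of 98 (11.2%, 5.74 to 19.2%). All merged PR sites of these chromosomes had 70.5% and 13.7%. The transient share was below that of all merged sites on 18 of 23 chromosomes, and below that of sites of 30, 60 and 360 min on 10 of 23. The share of all PR sites in H3K4me1 regions differed between chromosomes as widely, and its part in the transient shares was not tested.

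**Figure D3:**
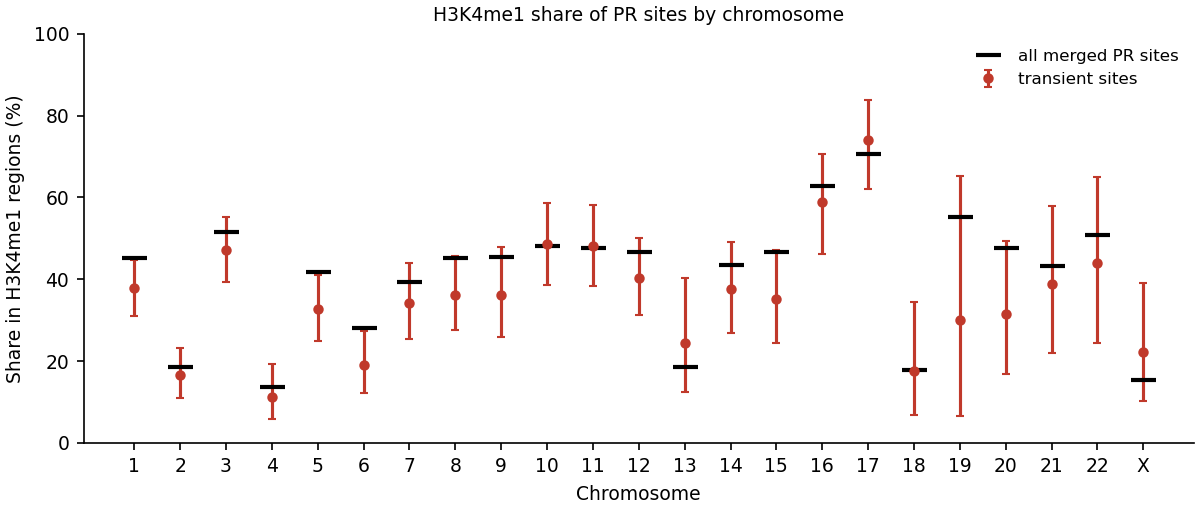
Share (%) of transient sites that overlap H3K4me1 regions on each chromosome, with exact 95% intervals over sites (dots and bars), beside the share of all merged PR sites (black dashes). Both range from under 20% on chromosomes 2, 4 and 18 to over 70% on chromosome 17.

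The ratio of MNase reads before to after hormone was lower at transient sites than at the other 60 min sites. In the authors' deposited table the 2009 sites of the 60 min list that belong to transient sites had 85 normalized reads before hormone (median, with quartiles of 59 and 122) and 73 after R5020 (50 and 104). Their median ratio of unstimulated to R5020 reads in the authors' deposited table was 1.16 (1.14 to 1.19), against 1.31 (1.30 to 1.31) at the remaining 60 min sites. A ratio above 1 means fewer reads after hormone. The authors' deposited table gave a ratio above 1 at 1346 transient sites (67.0%, 64.9 to 69.1%), where 78.0% of all 60 min sites had one. Below 1, so with more reads after hormone, were 622 (31.0%, 28.9 to 33.0%), against 20.9% of all 60 min sites in the authors' deposited table. Ratios above 2 were found at 157 transient sites (7.82%, 6.68 to 9.08%), against 13.0% of all sites in the authors' deposited table. Below 0.5 were 11 (0.548%, 0.274 to 0.978%), against 0.344%. The ratio of each site depends on how the authors scaled the 2 MNase libraries. A single factor would multiply all ratios alike and cancel in a quotient of class medians, but it would change the shares above or below a fixed ratio and which sites have more or fewer reads after hormone.

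The transient ratio was also below that of sites whose listing differs from theirs at 360 min alone. Those sites were also wider than the transient ones. Their H3K4me3 share was lower with 1 bp of overlap, while the intervals overlapped under the other overlap rules, as given above. Sites of 30, 60 and 360 min had a median ratio of 1.25 (1.23 to 1.26) in the authors' deposited table, so that the transient median was 0.928 times theirs (0.910 to 0.957). The 2 classes differed most on the unstimulated side. Per 100 bp the authors' deposited table gave transient sites a median of 27.3 unstimulated reads (26.6 to 27.9) and sites of 30, 60 and 360 min 30.0 (29.2 to 30.4). After R5020 the medians from the authors' deposited table were 23.4 (22.8 to 24.2) and 24.0 (23.4 to 24.4), with overlapping intervals. The transient median ratio was the lower one on 20 of 23 chromosomes. It was the higher one on chromosome 16 (1.42 against 1.41), chromosome 19 (1.53 against 1.36, from 10 transient sites) and chromosome 21 (1.24 against 1.20), in values from the authors' deposited table.

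Among 60 min sites of equal earlier history, those not listed at 360 min had the lower median ratio in each of 4 pairings. For sites of 5, 30 and 60 min the medians from the authors' deposited table were 1.22 (1.20 to 1.24) without and 1.39 (1.38 to 1.40) with 360 min. For sites of 5 and 60 min they were 1.22 (1.18 to 1.26) and 1.35 (1.27 to 1.39). For sites of 60 min without 5 or 30 min they were 1.23 (1.21 to 1.25) and 1.27 (1.25 to 1.30) in the authors' deposited table, where the intervals touch. The transient median was the lowest of these 8 classes, and its interval met only that of the sites of 5 and 60 min. The pairings were not matched for chromatin. H3K4me1 regions held 54.0% of sites of 5, 30 and 60 min and 60.3% of sites of all 4 times. In the transient pairing the shares were 35.9% without and 35.0% with 360 min. The part of chromatin in these differences was not tested.

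**Figure D4:**
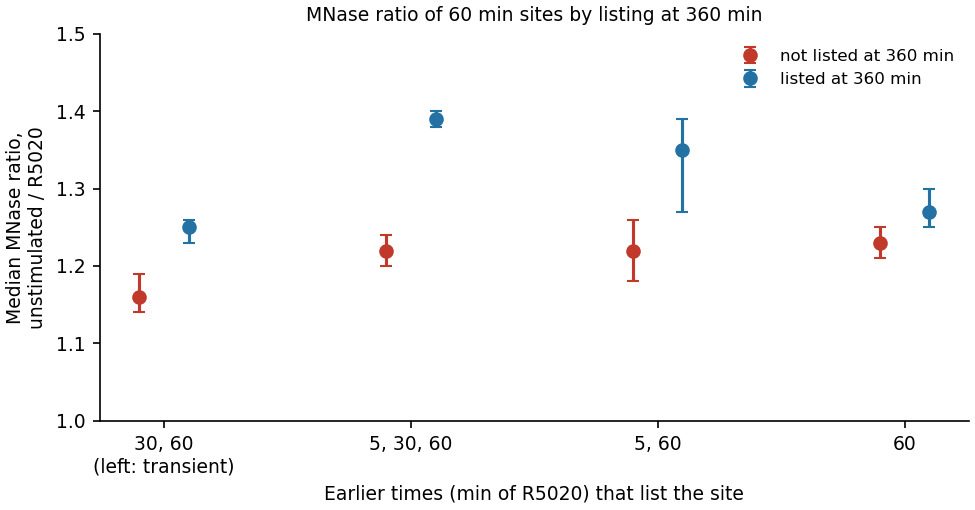
Median MNase ratio (unstimulated over R5020 reads, from the authors' deposited table) of 60 min PR sites not listed (red) or listed (blue) at 360 min, by the earlier times that list them; bars are exact 95% intervals of the median over sites, and the vertical axis starts at 1. The red point at the left is the transient class, at 1.16, the lowest of the 8.

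Chromatin split the transient sites into parts with unlike ratios. At the 1258 sites of the 60 min list in none of the 3 kinds of region, the median in the authors' deposited table was 76 reads in unstimulated cells and 72 after R5020, and the median ratio was 1.05 (1.04 to 1.08). At 515 of these (40.9%) the authors' deposited table had more reads after hormone than before. With H3K4me1 alone, 615 sites had medians of 104 and 79 reads and a ratio of 1.34 (1.31 to 1.38) in the authors' deposited table. The 42 sites in all 3 kinds of region had medians of 103 and 43 reads and a ratio of 2.50 (2.02 to 3.03) in the authors' deposited table, with 28 of them above 2. Of the 622 transient sites with a ratio below 1 in the authors' deposited table, 82.8% (79.6 to 85.7%) were in none of the regions. Of all transient sites, 62.6% were in none. Of the 157 above 2, 65 (41.4%, 33.6 to 49.5%) were in H3K4me3 or RNA polymerase II regions. These regions held 4.54% and 5.04% of all transient sites. The chromatin of sites below 1 or above 2 was not counted in other classes, so these shares are not shown to be particular to transient sites.

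Set beside sites of 30, 60 and 360 min in the same chromatin, transient sites had the lower ratio outside the regions but not in RNA polymerase II or H3K4me3 regions. In none of the regions the medians from the authors' deposited table were 1.05 (1.04 to 1.08) and 1.16 (1.14 to 1.17), with 40.9% and 28.8% of sites below 1. Sites of all 4 times had 1.17 (1.16 to 1.19) there in the authors' deposited table. With H3K4me1 and neither other feature the medians were 1.34 (1.31 to 1.38) and 1.39 (1.36 to 1.41) in the authors' deposited table, with intervals that overlap. In RNA polymerase II regions the order was the opposite, with 2.07 (1.84 to 2.30) at 101 transient sites and 1.88 (1.77 to 1.99) at 191 sites of 30, 60 and 360 min in the authors' deposited table, and these intervals also overlap. At H3K4me3 sites the authors' deposited table gave 2.07 (1.75 to 2.34) and 1.89 (1.73 to 2.02). The median in RNA polymerase II regions was 1.97 times that outside all regions among transient sites, 1.62 times among sites of 30, 60 and 360 min and 1.72 times among sites of all 4 times. Whether the classes differ in this step was not tested.

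The lower ratio was present at each width and each read density examined. In the 4 quartile groups of the 60 min list by width, from narrow to wide, the transient medians in the authors' deposited table were 1.19, 1.18, 1.14 and 1.14, and those of the sites of 30, 60 and 360 min were 1.25, 1.25, 1.24 and 1.24. Rank correlation (Spearman's rho) between width and ratio across the 2009 transient sites, which share the 2 MNase libraries, was -0.045. In 5 equal groups of the 60 min sites by unstimulated reads per 100 bp, from low to high, transient sites had 0.96, 1.16, 1.15, 1.26 and 1.32 in the authors' deposited table. Sites of 30, 60 and 360 min had 1.05, 1.23, 1.24, 1.32 and 1.41 in the same groups of the authors' deposited table. The intervals of the 2 classes overlapped in the 3 middle density groups and in the 2 narrowest width groups. The ratio holds the unstimulated reads as its numerator, so its increase over these groups is partly built in.

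**Figure D5:**
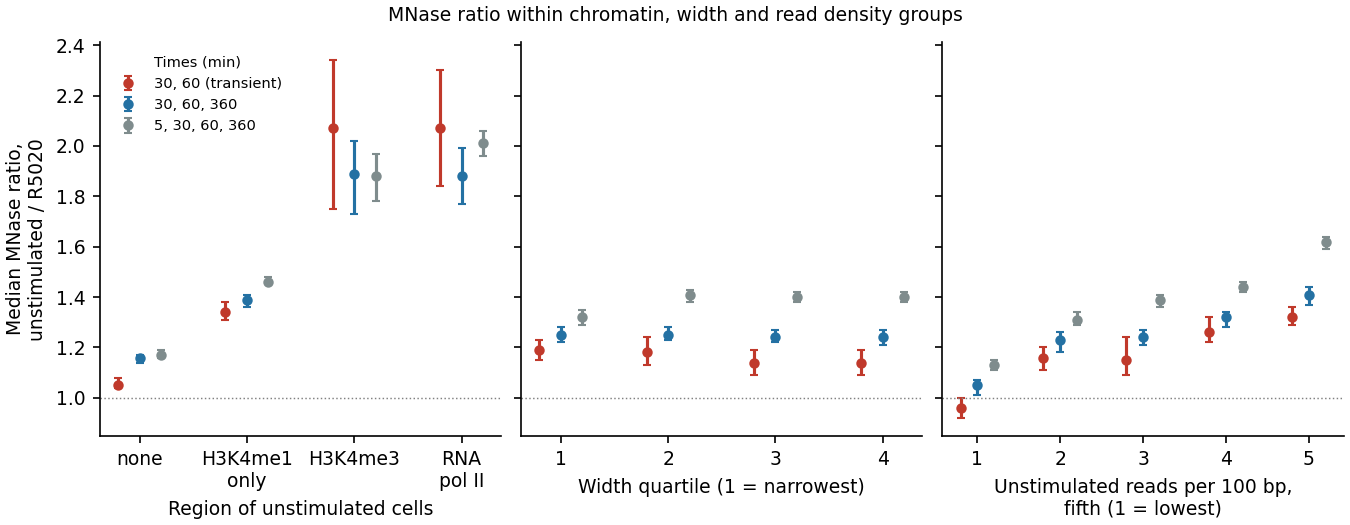
Median MNase ratio (unstimulated over R5020 reads, from the authors' deposited table) of 60 min PR sites in groups by region of unstimulated cells, by width and by unstimulated reads per 100 bp; bars are exact 95% intervals of the median over sites. Transient sites (red) lie below the sites of 30, 60 and 360 min (blue) in each width and density group and outside the regions, and above them, with overlapping intervals, in H3K4me3 and RNA polymerase II regions.

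Transient sites near a site of 0, 5 or 360 min had higher ratios than the other transient sites. With a 0, 5 or 360 min site within 1 kb the median in the authors' deposited table was 1.28 (1.23 to 1.33, 292 sites), and without one 1.14 (1.11 to 1.16, 1717 sites). These groups also differed in H3K4me1, at 57.9% and 32.2% as given above, and the part of H3K4me1 in the difference was not tested.

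The widest transient sites were named by their 60 min width. The leading one, chr9:12814551-12815355, was 804 bp wide at 60 min and 368 bp at 30 min and overlapped an RNA polymerase II region. Its reads in the authors' deposited table were 120 before and 116 after hormone (ratio 1.03). Next came chr8:81532529-81533309, 780 bp wide and in an H3K4me1 region, where reads in the authors' deposited table went from 139 to 192 (ratio 0.72). The site at chr1:173443074-173443839 (765 bp, H3K4me1) went from 200 to 184, and chr1:95507718-95508480 (762 bp, no region), which joined 2 sites of 30 min, from 106 to 88, in the authors' deposited table. The ratio was thus above 1 at 3 of these 4 sites and below 1 at the chromosome 8 site.

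Further wide sites on chromosome 1 were chr1:224411680-224412427 (747 bp, H3K4me1), with 380 and 309 reads in the authors' deposited table, and chr1:219350885-219351628 (743 bp, no region), with 238 and 272. The site at chr20:8096620-8097358 (738 bp, no region) had 162 and 146 reads and chr7:69117991-69118729 (738 bp, H3K4me1) had 200 and 198, in the authors' deposited table. The last were chr8:128818782-128819518 (736 bp, H3K4me1), with 366 and 287 reads, and chr10:95528671-95529397 (726 bp, H3K4me1), with 243 and 261, in the authors' deposited table. Of the 10, 6 were in H3K4me1 regions, 3 were in none, and none overlapped H3K4me3. Among all transient sites these shares were 35.9%, 62.6% and 4.54%. The ratio was above 1 at 7 of the 10, and the highest was 1.28 in the authors' deposited table. A ratio above 1 was found at 67.0% of transient and 78.0% of all 60 min sites, so 10 sites show no trait of wide ones.

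The highest and lowest ratios were named among the 1419 transient sites of the 60 min list with at least 50 reads in both conditions. This limit leaves out sites with few reads on either side, where the ratio in the authors' deposited table ran from 0.31 to 9.33. Within it, chr17:49243364-49243742 had the highest ratio and lay in all 3 kinds of region, with 191 reads before and 63 after hormone in the authors' deposited table (ratio 3.03). The site at chr1:1975363-1975671, in an H3K4me1 region, went from 162 to 54, and chr1:147736188-147736451, in all 3 kinds of region, from 227 to 76 (ratio 2.99), in the authors' deposited table. The sites at chr8:129385973-129386231 and chr2:901087-901596 were in none of the regions and went from 226 to 84 and from 140 to 54 (ratios 2.69 and 2.59) in the authors' deposited table. Enhancer-type, promoter-type and unmarked chromatin were thus all represented among the 5.

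The 5 lowest ratios under the same limit were at sites in none of the regions, where 62.6% of all transient sites lay. At chr16:77770961-77771151 reads in the authors' deposited table went from 50 to 100, at chr8:69787451-69787880 from 75 to 151, and at chr12:81136264-81136540 from 50 to 98. The sites at chr3:178329879-178330307 and chr8:100379110-100379624 went from 114 to 206 and from 81 to 145 in the authors' deposited table. The ratios of these 5 lay between 0.50 and 0.56. Without the limit, 11 transient sites were below 0.5, and the lowest ratio among those with H3K4me1 alone was 0.48 in the authors' deposited table.

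Among the 42 sites in all 3 kinds of region, the widest was chr11:118740804-118741316 (512 bp), with 138 reads before and 61 after hormone in the authors' deposited table. The site at chr4:688767-689246 (479 bp) had 128 and 90, and chr8:101571415-101571819 (404 bp) had 145 and 47, in the authors' deposited table. Both chr1:160002470-160002871 and chr2:131113720-131114121 were 401 bp wide, with 151 and 140 reads at the former and 23 and 10 at the latter in the authors' deposited table. Their ratios thus ran from 1.08 to 3.09 in the authors' deposited table.

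The window of 1 Mb with the most transient sites was chr7 from 69 to 70 Mb, with 7 of its 45 merged PR sites. A further 3 were sites of 30, 60 and 360 min and 14 were sites of all 4 times. H3K4me1 regions held 28 of the 45. Of the 7, 4 were in H3K4me1 regions: chr7:69108401-69108742, chr7:69117991-69118729, chr7:69274639-69275081 and chr7:69310769-69311043, with ratios of 1.19, 1.01, 1.39 and 1.62 in the authors' deposited table. The other 3, chr7:69299521-69299798, chr7:69464789-69465450 and chr7:69942293-69942687, had 1.25, 1.09 and 1.35 in the authors' deposited table. All 7 thus had a ratio above 1, as did 67.0% of all transient sites and 78.0% of all 60 min sites. In all, 19 windows of 1 Mb held 5 or more transient sites.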

How the data were processed

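The authors deposited 1 list of regions per sample, as positions on hg19 (per the submitters' processing notes). The aligner, the peak caller and its thresholds were not given in the sources used here. Per the file headers, the authors' MNase values are a normalized number of reads per 60 min site, in whole numbers, handled here as a score with unknown scaling. The authors' deposited ratio equals unstimulated over R5020 reads and is blank at sites with 0 reads after R5020. The MNase libraries themselves were not analysed here.

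Positions were read as starting at the start and ending before the end base. A site's width is end minus start. Sites of the 5 PR lists were merged at 1 bp of overlap, and chromatin overlap also needed 1 bp. Each site of the 60 min list takes the class of its merged site. Intervals of shares are Clopper-Pearson intervals, those of medians come from order statistics, and that of a quotient of medians adds the arms of those intervals in quadrature on the log scale. Members, classes and named-site rules were chosen with earlier results of these data known. Named were the 10 widest, the 5 highest and 5 lowest ratios with 50 or more reads in both conditions, the 5 widest in all 3 kinds of region, and sites at the rule's edge. The dense window was chosen after its values were seen. The merging, overlap and interval code was tested on simulated data. The software was Python 3.11.15 with pandas 2.3.3, NumPy 2.4.6, SciPy 1.17.1 and, for plots, Matplotlib 3.10.9.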

Additional observations from a re-analysis of the deposited data

How the results depend on the processing

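Joining sites within 500 bp gave 1815 transient sites and an H3K4me1 share of 33.5%. From the wider 50% of each PR list there were 1210 transient sites, with 38.4% in H3K4me1 and 3.55% in H3K4me3 regions, and 957 sites were 250 to 350 bp wide. Without transient sites that have a 0, 5 or 360 min site within 1 kb, H3K4me1 was at 32.2%. By midpoint, H3K4me3 was at 3.39% and RNA polymerase II at 3.89%. Counting regions within 1 kb gave 42.0%, 6.98% and 8.48% for H3K4me1, H3K4me3 and RNA polymerase II, and the wider 50% of regions gave 28.1%, 3.29% and 3.69%. The median MNase ratio was 1.05 outside all regions, 1.38 in H3K4me1 regions and 2.07 in RNA polymerase II regions, where the quotient of transient to 30, 60 and 360 min sites was 0.905, 0.965 (interval to 1.01) and 1.10 (0.966 to 1.24). The last of these reverses the direction and, like the limit to 20 to 40 unstimulated reads per 100 bp, was chosen after seeing the data. Under the other 10 of 13 settings the quotient lay between 0.912 and 0.944 and the ratio between 1.14 and 1.19. Leaving out chromosome 3, or X, Y and M, kept each of the 6 results within its interval or, for the count, within 1.5 times. The causes of these shifts were not tested. No paired analysis was possible because each group holds 1 sample. Unknown depth and missing peak heights limit all class sizes.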
